A study of Mus musculus with 16 samples.

Results

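The genes described here are 7 mouse microRNA genes tied to hypoxia and inflammation: Mir31, Mir155, Mir146, Mir210, Mir212, Mir17hg and Mir18. A gene was taken where a probe set, the group of array probes that reads 1 transcript, named that gene alone, and among several such probe sets the brightest on average was to be used. All 7 of 7 symbols were found, each with 1 probe set, among 19938 genes of which 300 carry a microRNA symbol. The probe sets read precursor or host transcripts and give no level of the mature microRNA.

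The arrays measured myeloid cells that had been sorted from lungs on CD11c, CD11b and MHC class II, and that the labels call CD11b+ DCs (dendritic cells). There were 8 arrays of such cells labelled tumoral, from lung tumours, and 8 labelled peritumoral, from the lung tissue beside the tumours. All mice were C57BL/6 hosts whose airways had been inoculated with LLC cells, the Lewis lung carcinoma line of the same strain, so both groups came from tumour-bearing animals and neither from a healthy lung. No age, sex, time after inoculation, animal or pool is given in the sources used here, and p-values therefore cover only the spread among these samples, part of which may be technical.

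MicroRNAs are cut from longer transcripts and pair with messenger RNAs mainly through a seed, the bases near their 5′ end, which lowers the output of those messages. miR-210 is a direct target of the hypoxia-inducible factors, miR-155 and miR-146a are induced by NF-kappaB, and miR-146a in turn acts on Traf6 and Irak1 upstream of NF-kappaB. miR-31 acts on Hif1an, an inhibitor of HIF-1, the miR-212 and miR-132 pair is driven by CREB, and the miR-17-92 cluster made from Mir17hg is driven by Myc and E2F and acts on inhibitors of growth and on Bcl2l11, which encodes the death-promoting protein Bim.

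The mature sequences show which of these genes can share targets through the seed, and they are given from RefSeq on the mouse build GRCm38.p6, with the seed, bases 2 to 8, in capitals.
miR-17-5p: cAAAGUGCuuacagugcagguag
miR-106a-5p: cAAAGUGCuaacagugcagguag
miR-18a-5p: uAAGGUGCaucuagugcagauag
miR-19a-3p: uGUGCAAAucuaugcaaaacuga
miR-212-3p: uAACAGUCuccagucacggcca
miR-132-3p: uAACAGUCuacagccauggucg
miR-155-5p: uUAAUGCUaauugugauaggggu
miR-146a-5p: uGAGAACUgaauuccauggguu
miR-210-3p: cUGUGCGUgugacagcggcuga
miR-31-5p: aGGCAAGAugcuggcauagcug

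Counting from 1 at the 5′ end, miR-17-5p and miR-18a-5p differed by 6 of 23 bases, of which the substitution A4G was the 1 within the seed, so that neighbours of 1 transcript carry different seeds. The miR-17-5p seed occurs in 7 of 1679 mature names of the table, among them miR-106a-5p, which differs from miR-17-5p by the substitution U10A alone. miR-212-3p and miR-132-3p had the same seed, with 17 of 22 bases identical. The seeds of miR-155-5p, miR-210-3p and miR-31-5p each occurred in 1 mature name, and that of miR-146a-5p in 2, the other being miR-146b-5p.

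On the same build the Mir18 hairpin lies on chromosome 14 at 115043851 to 115043946, as the second of 6 hairpins that span 836 bases from Mir17 to Mir92-1 on the plus strand. The Mir17hg record of RefSeq, 2339 bases long, holds 1 of those 6 hairpins whole, and the other 5 start before it. The Mir212 hairpin lies on chromosome 11 at 75173388 to 75173478, with 203 bases between it and the Mir132 hairpin on the same strand. The hairpins of the other 4 genes lie apart from these, Mir155 on chromosome 16 at 84714140 to 84714204, Mir146 on chromosome 11 at 43374397 to 43374461, Mir210 on chromosome 7 at 141221384 to 141221493 and Mir31 on chromosome 4 at 88910557 to 88910662.

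Some arrays stood apart before any comparison. Counting the deposited order in 3s gives sets that no label names: peritumoral 1, 4 and 7 with tumoral 2, 5 and 8 (set A), peritumoral 2, 5 and 8 with tumoral 3 and 6 (set B), and peritumoral 3 and 6 with tumoral 1, 4 and 7 (set C). They were noticed after the data were seen. On the first principal component, which held 45.8% of the variance, set C lay at 25.0 to 38.0, against -51.4 to -10.4 for set A and -10.2 to 8.39 for set B. Dendritic cell markers, as the mean over 9 genes of the log2 value minus each gene's mean, were lowest in set C (-0.90 to -0.32), and genes induced by HIF were highest there (0.18 to 0.55). Peritumoral 4 held the most endothelial transcript, with the 12 endothelial markers averaging 3.40, while tumoral arrays ranged from -0.56 to -0.35 and peritumoral arrays from -0.48 upward. Peritumoral 4 was also highest for markers of fibroblasts (1.98), lymphocytes (1.97), lung epithelium (1.79), alveolar macrophages (1.51) and neutrophils (1.38). Next highest was peritumoral 7 for endothelial (1.22) and fibroblast markers (0.50), and peritumoral 5 for neutrophil markers (1.24). The genes of the sorting markers were high in both groups, with the CD11c gene Itgax at 11.62 ± 0.08 in tumoral and 11.47 ± 0.24 in peritumoral arrays (log2, SD, n = 8 each). The CD11b gene Itgam was at 11.31 ± 0.25 in tumoral and 11.22 ± 0.50 in peritumoral arrays, and the MHC class II chain H2-Ab1 at 13.25 ± 0.08 in tumoral and 13.21 ± 0.13 in peritumoral arrays.

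The comparison of tumoral with peritumoral cells asked how the tumour site changes these cells. All levels here are log2 values, which assumes that the deposited log base is 2, and all differences are tumoral minus peritumoral on that scale. The level of 1 probe set cannot be set against that of another, and in such bulk samples fewer cells of a type and less RNA per cell cannot be told apart. None of the 7 genes passed limma's adjusted p threshold of 0.05, and neither did any of the 19938 genes (0%). At an unadjusted p under 0.05 were 3 of 7 genes, all with a higher mean in tumoral arrays, against 11.5% of all genes in either direction and 5.6% higher in tumoral arrays. These were Mir17hg, Mir18 and Mir212, of which Mir17hg and Mir18 belong to 1 locus. The 7 genes were chosen with earlier results of these data known, so this count and the ranks below are description only. For none of the 7 were the labels free of overlap, against 0.0853% of all genes. By size of difference Mir17hg ranked 2, Mir18 ranked 3, Mir155 ranked 4 and Mir212 ranked 8 of the 300 microRNA genes, counted from the highest.

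Mir17hg, the host transcript of the miR-17-92 cluster, had the largest difference of the 7. In tumoral arrays 1 to 8 it measured 6.26, 6.77, 6.28, 6.50, 6.58, 6.20, 6.23 and 6.75. In peritumoral arrays 1 to 8 it measured 5.75, 5.73, 5.66, 5.87, 5.93, 5.65, 6.47 and 6.31. Of the peritumoral arrays 6 lay below the lowest tumoral array, and peritumoral 7 and 8 lay within the tumoral range. The means were 6.44 ± 0.24 in tumoral and 5.92 ± 0.31 in peritumoral arrays (SD, n = 8 each). The difference was 0.52 (SE 0.13, 95% interval 0.26 to 0.79), or 1.44-fold, with adjusted p = 0.239 by limma and p = 0.0033 by the exact two-sided permutation test of this gene alone. Without peritumoral 7 the difference was 0.60 and passed the threshold (adjusted p = 0.0285), with 0.642% of all genes then called. Peritumoral 7 was the highest peritumoral array for this gene, so leaving it out widens the difference by construction. With any other single array left out, none of the 7 was called. Without peritumoral 7 and 8, which were picked for these very values, Mir17hg, Mir18 and Mir212 were called beside 2.62% of all genes, which supports nothing about them.

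**Figure D1:**
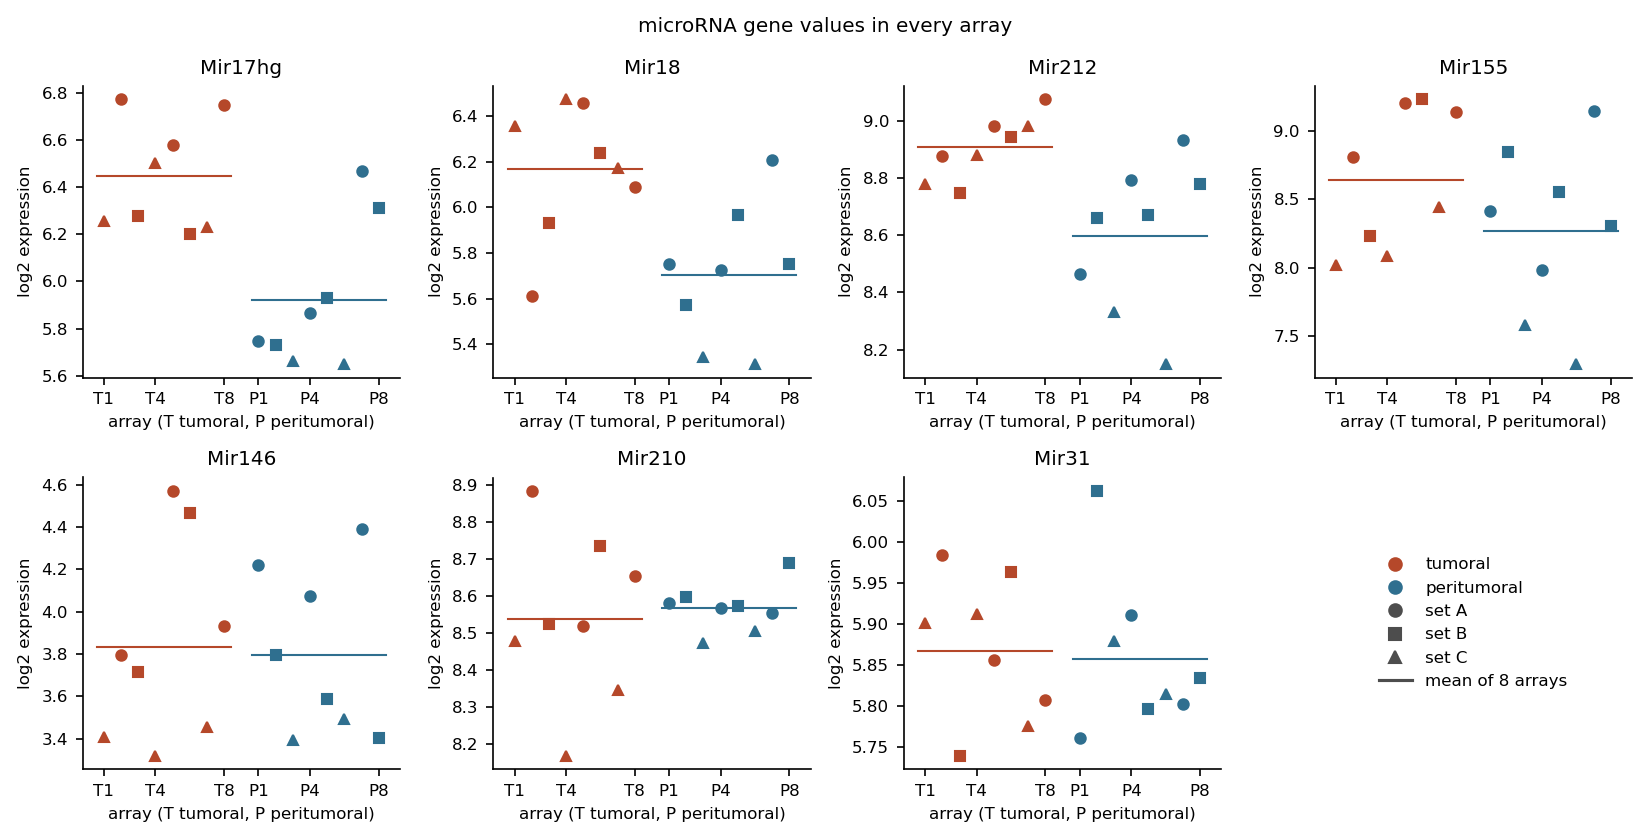
Log2 level of each of the 7 microRNA genes in every array, 1 panel a gene, with the 8 tumoral arrays left of the 8 peritumoral arrays lines at the group means and marker shapes for the 3 deposited-order sets. For Mir17hg 6 of 8 peritumoral arrays lie below every tumoral array, while for Mir31, Mir146 and Mir210 the groups lie across each other.

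Mir18, the gene of miR-18a, lies inside the same cluster and was higher on average in tumoral arrays too. Tumoral arrays 1 to 8 measured 6.36, 5.61, 5.93, 6.47, 6.46, 6.24, 6.17 and 6.09. Peritumoral arrays 1 to 8 measured 5.75, 5.57, 5.35, 5.73, 5.97, 5.31, 6.21 and 5.75. The groups overlapped, with tumoral 2 low and peritumoral 7 high. The means were 6.17 ± 0.29 in tumoral and 5.70 ± 0.30 in peritumoral arrays, a difference of 0.46 (SE 0.14, 95% interval 0.17 to 0.75, 1.38-fold). Its adjusted p by limma was 0.256, and the exact permutation p was 0.0093.

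The other hairpins of the cluster were read by probe sets of their own and were uneven. Of 5 hairpins with a probe set, Mir18 among them, all 5 averaged higher in tumoral arrays, against 41.7% of all genes. At an unadjusted p under 0.05 were 4 of these 5, against 5.6% of all genes in that direction. None passed the adjusted threshold, and differences ran from 0.05 to 0.46 with a median of 0.26. The hairpins share a transcript and include Mir18, chosen with earlier results known, so they are not separate support. Of 14 genes of the members' transcripts, loci or families, Mir132 included and Mir18 not, 4 were at an unadjusted p under 0.05. Without peritumoral 4 it was 2 of these 14. Mir19a, whose product shares the seed of miR-19b, averaged 3.76 ± 0.22 in tumoral and 3.48 ± 0.28 in peritumoral arrays, a difference of 0.28 (adjusted p = 0.392). Mir19b-1 averaged 5.44 ± 0.23 in tumoral and 5.19 ± 0.19 in peritumoral arrays, and Mir20a averaged 4.42 ± 0.09 in tumoral and 4.27 ± 0.13 in peritumoral arrays. These probe sets gave low values. By mean level Mir19a stood at percentile 1.98 of all genes, Mir20a at 5.87 and Mir19b-1 at 15.2. Mir17 at percentile 21.4, Mir18 at 25.6 and Mir17hg at 30.8 also lay below the median gene. Mir17, the first hairpin, was nearly level at 5.75 ± 0.15 in tumoral and 5.69 ± 0.18 in peritumoral arrays, a difference of 0.05.

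Neighbours at 1 locus were also set against each other within each array, for pairs chosen after their values were seen and therefore as a description with no test. Mir17hg minus Mir17 was 0.70 ± 0.28 in tumoral and 0.23 ± 0.35 in peritumoral arrays, 0.47 apart. Mir18 minus Mir17 was 0.42 ± 0.35 in tumoral and 0.01 ± 0.30 in peritumoral arrays, 0.41 apart.

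The related clusters give microRNAs with some of the same seeds, and their median differences lay closer to 0 than that of the chromosome 14 hairpins, although the single genes overlapped, with Mir19b-2 on chromosome X at 0.07 and Mir17 on chromosome 14 at 0.05. On chromosome X, 2 of 5 genes averaged higher in tumoral arrays, with a median difference of -0.03 and none at an unadjusted p under 0.05. Mir106a, which gives the near copy of miR-17 printed above, measured 5.05 ± 0.13 in tumoral and 5.10 ± 0.14 in peritumoral arrays. On chromosome 5, 1 of 3 genes averaged higher, with a median of -0.04. Mir106b measured 6.30 ± 0.19 in tumoral and 6.29 ± 0.19 in peritumoral arrays, and Mir93 6.93 ± 0.18 in tumoral and 7.01 ± 0.10 in peritumoral arrays. Whether the clusters differ from each other was not tested.

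Mir212 had the steadiest levels among tumoral arrays of the 3 genes at an unadjusted p under 0.05. In tumoral arrays 1 to 8 it measured 8.78, 8.88, 8.75, 8.88, 8.98, 8.94, 8.98 and 9.07. In peritumoral arrays 1 to 8 it measured 8.46, 8.66, 8.33, 8.79, 8.67, 8.15, 8.93 and 8.78. All 8 tumoral arrays lay above the peritumoral median, and the groups overlapped through peritumoral 4, 7 and 8. The means were 8.91 ± 0.11 in tumoral and 8.60 ± 0.26 in peritumoral arrays, a difference of 0.31 (SE 0.10, 95% interval 0.11 to 0.52, 1.24-fold). limma gave an adjusted p of 0.267, and the exact permutation test gave 0.0044.

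Mir132, the neighbour with the same seed, measured 7.11, 7.13, 6.91, 7.21, 7.42, 7.35, 7.11 and 7.41 in tumoral arrays 1 to 8. In peritumoral arrays 1 to 8 it measured 7.13, 7.32, 6.40, 6.29, 7.03, 6.61, 7.33 and 6.77. The tumoral values lay within a narrow band, and 4 peritumoral values lay below its lower end. The means were 7.21 ± 0.18 in tumoral and 6.86 ± 0.40 in peritumoral arrays, a difference of 0.35 (limma adjusted p = 0.380, exact permutation p = 0.0469). The lowest array was peritumoral 4. Without it the highest difference among the genes of the members' transcripts, loci or families, Mir132 included, was 0.27. Mir212 minus Mir132 within an array was 1.70 ± 0.11 in tumoral and 1.74 ± 0.39 in peritumoral arrays, -0.04 apart.

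**Figure D2:**
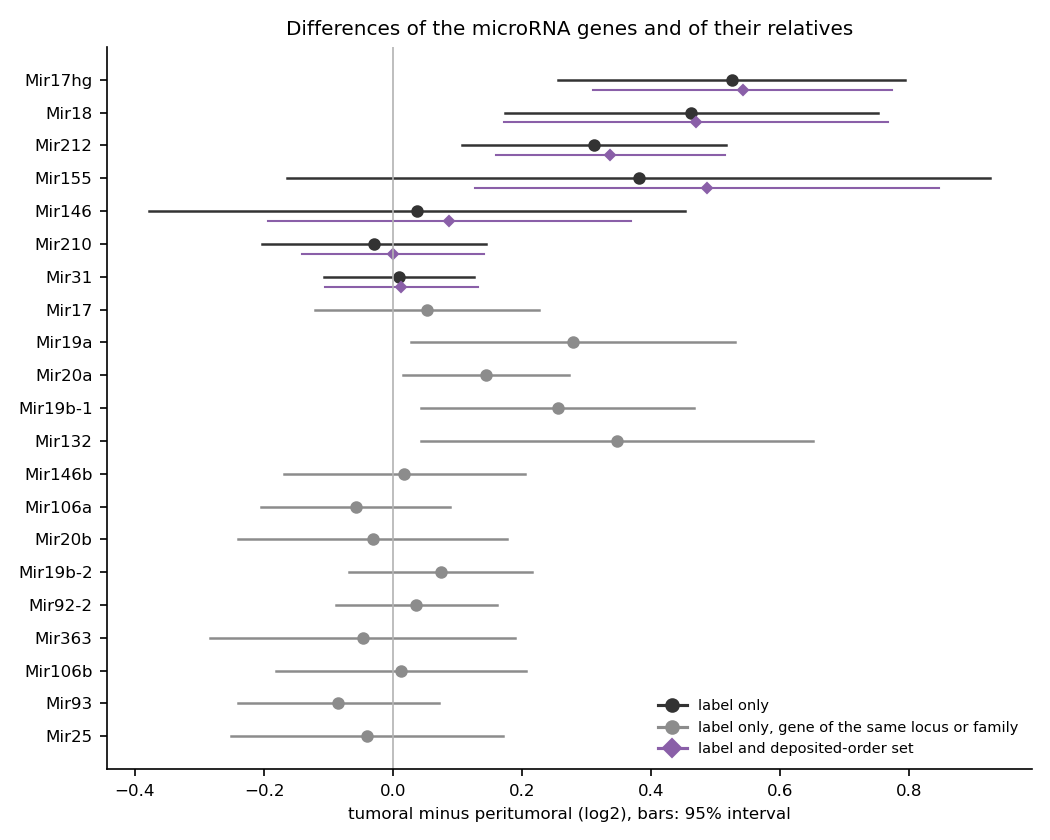
Difference of each of the 7 genes and of neighbouring or related microRNA genes, tumoral minus peritumoral on the log2 scale, with 95% intervals from limma as bars, in black or grey with the label alone and in purple with the deposited-order set as a block. With the label alone the intervals of Mir17hg, Mir18 and Mir212 lie above 0, and that of Mir210 runs from -0.20 to 0.14.

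Mir155, whose microRNA acts on Socs1 and Inpp5d in activated myeloid cells, varied most among arrays, with a standard deviation above that of 97.2% of all genes. In tumoral arrays 1 to 8 it measured 8.02, 8.81, 8.23, 8.09, 9.20, 9.23, 8.44 and 9.14. In peritumoral arrays 1 to 8 it measured 8.42, 8.85, 7.58, 7.98, 8.55, 7.29, 9.15 and 8.31. Values above 9 occurred under both labels. The means were 8.65 ± 0.51 in tumoral and 8.27 ± 0.62 in peritumoral arrays, a difference of 0.38 (SE 0.26, 95% interval -0.16 to 0.92) that was not larger than the spread (limma adjusted p = 0.586, exact permutation p = 0.205).

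Mir155 also varied by deposited-order set, with means of 8.78 in set A, 8.63 in set B and 7.88 in set C. Within sets the difference was 0.54 in A, 0.16 in B and 0.75 in C, and in C the tumoral arrays (8.02 to 8.44) lay above both peritumoral arrays (7.29 and 7.58). With the set as a block in limma, a setting chosen after the data were seen, it was 0.49 (SE 0.17, 95% interval 0.13 to 0.85), at an unadjusted p of 0.0110 and an adjusted p of 0.145. In that fit 4 of 7 genes reached an unadjusted p under 0.05, all higher on average in tumoral arrays, against 8.61% of all genes in that direction, and no gene passed the adjusted threshold (0%).

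The set block left the other 3 genes near their values. Mir17hg was at 0.54 (adjusted p = 0.0795), Mir18 at 0.47 (adjusted p = 0.103) and Mir212 at 0.34 (adjusted p = 0.0815). Within sets Mir17hg differed by 0.67 in A, 0.25 in B and 0.67 in C, with no overlap of the labels in A and C. Mir18 differed by 0.16 in A, 0.32 in B and 1.01 in C, where tumoral arrays ran from 6.17 to 6.47 and peritumoral arrays from 5.31 to 5.35. Mir212 differed by 0.25 in A, 0.14 in B and 0.64 in C. A set holds at most 3 arrays of a label, so no test was made within one.

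**Figure D3:**
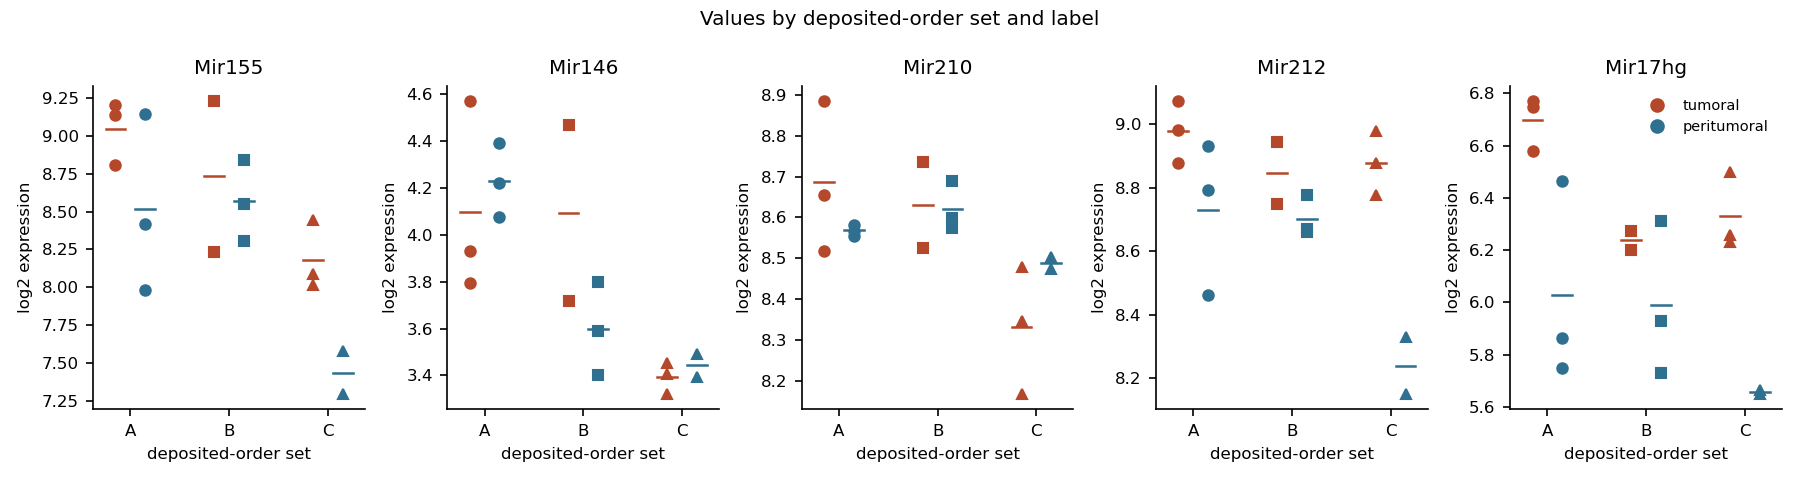
Log2 level of Mir155, Mir146, Mir210, Mir212 and Mir17hg by deposited-order set A, B and C, with tumoral arrays left of peritumoral arrays in each set and lines at the means. The means of Mir155 and Mir146 are lowest in set C under both labels, and in set C the tumoral arrays of Mir17hg, Mir212 and Mir155 lie above the peritumoral ones.

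Mir146, the gene of miR-146a, gave low values, with a mean below those of all but 2.82% of genes. It measured 3.41, 3.79, 3.72, 3.32, 4.57, 4.47, 3.45 and 3.93 in tumoral arrays 1 to 8. It measured 4.22, 3.80, 3.39, 4.07, 3.59, 3.49, 4.39 and 3.40 in peritumoral arrays 1 to 8. High and low arrays occurred under both labels, and the means were 3.83 ± 0.47 in tumoral and 3.79 ± 0.39 in peritumoral arrays. They lay 0.04 apart (SE 0.20, 95% interval -0.38 to 0.45, limma adjusted p = 0.964, exact permutation p = 0.864), so that no difference was detectable within that interval. By set Mir146 averaged 4.16 in A, 3.79 in B and 3.41 in C, the same order as Mir155. Mir146b, on chromosome 19, gives the other microRNA with this seed and measured 6.52 ± 0.15 in tumoral and 6.50 ± 0.20 in peritumoral arrays.

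Mir210, the microRNA gene most directly tied to hypoxia, did not separate the labels. Tumoral arrays 1 to 8 measured 8.48, 8.89, 8.52, 8.17, 8.52, 8.74, 8.35 and 8.65. Peritumoral arrays 1 to 8 measured 8.58, 8.60, 8.47, 8.57, 8.57, 8.50, 8.56 and 8.69. The tumoral arrays spread to both sides of a tight peritumoral group. The means were 8.54 ± 0.22 in tumoral and 8.57 ± 0.06 in peritumoral arrays, a difference of -0.03 (SE 0.08, 95% interval -0.20 to 0.14, limma adjusted p = 0.925, exact permutation p = 0.738), whose sign turned to 0.02 after centring on array medians. Its mean was 8.63 in set A, 8.62 in set B and 8.39 in set C, lowest where the HIF-induced genes were highest. The median of all probe sets also ranged lowest in set C, at 6.745 to 6.85. It ranged from 6.824 to 6.948 in set A and from 6.814 to 6.93 in set B. The cause of this order of the sets was not tested.

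Mir31, whose microRNA acts on Hif1an, was the most even of the 7, with a standard deviation above that of only 2.83% of genes. It measured 5.90, 5.98, 5.74, 5.91, 5.86, 5.96, 5.78 and 5.81 in tumoral arrays 1 to 8. It measured 5.76, 6.06, 5.88, 5.91, 5.80, 5.82, 5.80 and 5.83 in peritumoral arrays 1 to 8. The groups overlapped over nearly their whole range, with means of 5.87 ± 0.09 in tumoral and 5.86 ± 0.10 in peritumoral arrays. A difference of 0.0095 (95% interval -0.11 to 0.13, limma adjusted p = 0.967) changed sign under array weights.

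Other genes of these pathways, related microRNA genes and cell type markers were read from 23 further lists, and none held a gene past the adjusted threshold when all arrays were used. Over all genes 41.7% averaged higher in tumoral arrays, with a median difference of -0.022. Among transcription factors and oxygen sensors that act on these microRNA genes, 15 of 27 averaged higher, with a median of 0.02 that turned to -0.04 after quantile normalization and to -0.01 without peritumoral 4. Fos, a part of AP-1, measured 11.89 ± 0.10 in tumoral and 11.61 ± 0.21 in peritumoral arrays (limma adjusted p = 0.256). Jun, its partner in AP-1, differed the other way at 11.42 ± 0.08 in tumoral and 11.66 ± 0.34 in peritumoral arrays (-0.24, limma adjusted p = 0.434). Epas1, which encodes HIF-2alpha and is abundant in endothelium, measured 7.50 ± 0.26 in tumoral and 8.92 ± 1.80 in peritumoral arrays. Hif1a and Myc were looked up after the data were seen, and Hif1a measured 11.33 ± 0.40 in tumoral and 11.34 ± 0.36 in peritumoral arrays, while Myc ranged from 9.71 to 10.19 in tumoral and from 9.50 to 10.51 in peritumoral arrays.

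Of 25 HIF-induced protein-coding genes 7 averaged higher in tumoral arrays and 18 lower, at a median of -0.06. An unadjusted p under 0.05 was reached by 3 of these 25, near the 11.5% of all genes. The median was -0.10 without peritumoral 4 and -0.11 with the set as a block. Ddit4, a stress-induced inhibitor of mTOR, measured 8.48 ± 0.21 in tumoral and 8.90 ± 0.38 in peritumoral arrays. Cited2, an inhibitor of HIF activity, measured 11.02 ± 0.07 in tumoral and 10.69 ± 0.32 in peritumoral arrays, and Bnip3l, a mitophagy receptor, 11.64 ± 0.10 in tumoral and 11.82 ± 0.22 in peritumoral arrays. Of 24 genes induced by NF-kappaB and Toll-like receptor signals 17 averaged higher in tumoral arrays, with a median of 0.07. After quantile normalization 15 of 24 averaged higher, with a median of 0.03. The median was 0.07 without peritumoral 4, 0.13 without peritumoral 4 and 7 and 0.14 with the set as a block. Cxcl1, a neutrophil chemokine, measured 10.31 ± 0.20 in tumoral and 9.85 ± 0.51 in peritumoral arrays, and Tnf measured 11.50 ± 0.09 in tumoral and 11.27 ± 0.31 in peritumoral arrays. Il6 averaged 10.11 ± 0.37 in tumoral and 9.71 ± 0.54 in peritumoral arrays.

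Known targets of the microRNAs lay on both sides of 0. For miR-17-92, 11 of 16 targets averaged higher in tumoral arrays, the direction of their microRNA genes, with a median of 0.05. An unadjusted p under 0.05 was reached by 4 of these 16, against 11.5% of all genes. After quantile normalization 8 of these 16 averaged higher and 8 lower, with a median of 0.0034. Bcl2l11 measured 10.36 ± 0.11 in tumoral and 10.03 ± 0.30 in peritumoral arrays (0.33, limma adjusted p = 0.277), and Socs5 8.02 ± 0.14 in tumoral and 8.20 ± 0.09 in peritumoral arrays (-0.18). For miR-212 and miR-132, 5 of 10 averaged higher, among them Rasa1, a Ras inhibitor, at 9.25 ± 0.13 in tumoral and 9.0 ± 0.20 in peritumoral arrays. Rbl2, a pocket protein targeted by miR-17, differed by 0.17, and the miR-212 and miR-132 targets Nr4a2 and Sirt1 by 0.20 and 0.11. For miR-155 the count was 10 of 13 (7 of 13 after quantile normalization), with Fos as above, Fadd at 0.17 and Tab2 at -0.09. For miR-146a it was 5 of 9, with Cxcr4 at 0.16, Irak1 at 0.08 and Numb at -0.16. For miR-31 it was 6 of 10, with Ppp2r2a at 0.16, Ppp6c at 0.11 and Cd28, a co-stimulatory receptor of T cells, at -0.51. For miR-210 it was 6 of 12, with Mnt at 0.13 and Efna1 at -0.47. Gpd1l, a miR-210 target, measured 7.91 ± 0.15 in tumoral and 8.13 ± 0.16 in peritumoral arrays (-0.22, limma adjusted p = 0.318). Protein was not measured.

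The genes that make and use microRNAs showed small differences, with 14 of 20 averaging higher in tumoral arrays and a median of 0.04. Ran, which carries precursors out of the nucleus with exportin, measured 9.10 ± 0.29 in tumoral and 8.79 ± 0.27 in peritumoral arrays. Ago1, an Argonaute of the silencing complex, measured 8.49 ± 0.16 in tumoral and 8.66 ± 0.15 in peritumoral arrays. Adar, an RNA-editing enzyme, differed by 0.14. Of 24 cell cycle genes 12 averaged higher, with a median of -0.0026 that was -0.079 without peritumoral 4. Pcna, the replication clamp, measured 11.47 ± 0.10 in tumoral and 11.26 ± 0.10 in peritumoral arrays, while Top2a differed by 0.28 and Birc5 by 0.23. Of 17 immediate-early genes, which handling as well as signals can induce, 13 averaged higher in tumoral arrays with a median of 0.17, Egr2 at 0.36 and Klf6 at 0.23 among them. Their mean per array ran from -0.05 to 0.21 in tumoral and from -0.37 to 0.20 in peritumoral arrays, and their part in the values of Mir212, a CREB-driven gene, was not tested.

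Markers of cell types averaged higher or lower by label, none of them past the adjusted threshold when all arrays were used. Of 12 monocyte and macrophage markers 11 averaged higher in tumoral arrays, with a median of 0.20. Their mean ran from -0.08 to 0.33 in tumoral and from -0.61 to 0.07 in peritumoral arrays, lowest in peritumoral 4. Without peritumoral 4, 10 of these 12 averaged higher, with a median of 0.15. Of 9 dendritic cell markers 7 averaged higher in tumoral arrays, with a median of 0.04. After quantile normalization 3 of these 9 averaged higher, with a median of -0.01. Markers of cells that the sort should leave out averaged lower in tumoral arrays throughout: endothelium 12 of 12 with a median of -0.81, lung epithelium 14 of 14 (-0.53), neutrophils 11 of 11 (-0.49), fibroblasts 11 of 11 (-0.44), lymphocytes 12 of 12 (-0.33) and alveolar macrophages 7 of 7 (-0.12). Without peritumoral 4 these medians were -0.38 for endothelium, -0.25 for epithelium, -0.27 for neutrophils, -0.28 for fibroblasts, -0.04 for lymphocytes and -0.05 for alveolar macrophages. Without peritumoral 4 and 7 they were -0.21 for endothelium and -0.21 for fibroblasts. The part of these cells in the values of Mir17hg, Mir18 and Mir212 was not tested. Without peritumoral 4 Mir17hg differed by 0.52, Mir18 by 0.47 and Mir212 by 0.34.

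How the genes varied together was examined over the 11 arrays of sets A and B, since set C stood apart, for 7 relations with 100000 permutations each. These relations were not among the planned results, and the sets were noticed after the data were seen. Their p-values, adjusted over these 7 alone, are therefore description only. The permutations shuffled these arrays freely, with no term for set or label. Sets A and B did not overlap on the first principal component, so the p-values rest on treating the arrays as alike. Mir155 followed the mean of the NF-kappaB-induced genes, with r = 0.83 (permutation p = 0.00159, adjusted 0.0111) and rho = 0.74 (permutation p = 0.0128, adjusted 0.0646). Without the 2 arrays farthest from the median of that mean, r was 0.72. It also followed the dendritic cell markers, with r = 0.73 (permutation p = 0.0133, adjusted 0.0467) and rho = 0.71 (permutation p = 0.0184, adjusted 0.0646), and r = 0.65 without the 2 farthest arrays.

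For both relations of Mir155 the adjusted p was under 0.05 for r and above it for rho, so the call depends on the measure. The other 5 relations passed by neither. Mir146 against Mir155 had r = 0.56 (permutation p = 0.0747, adjusted 0.174) and rho = 0.64 (permutation p = 0.0406, adjusted 0.0710), and r = 0.30 without tumoral 5 and 6. Mir132 against Mir212 had r = 0.34 (permutation p = 0.299) and rho = 0.64 (permutation p = 0.0402, adjusted 0.0710), with r = 0.62 without the 2 farthest arrays. Mir18 against Mir17hg had r = 0.43 (permutation p = 0.189) and rho = 0.40 (permutation p = 0.226), with r = 0.16 without the 2 farthest arrays. Mir210 against the HIF-induced genes had r = -0.27 (permutation p = 0.400) and rho = 0.05 (permutation p = 0.880), with r = -0.25 without the 2 farthest arrays. Mir210 against the array median had r = 0.49 (permutation p = 0.124) and rho = 0.56 (permutation p = 0.0771), with r = 0.66 without the 2 farthest arrays.

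**Figure D4:**
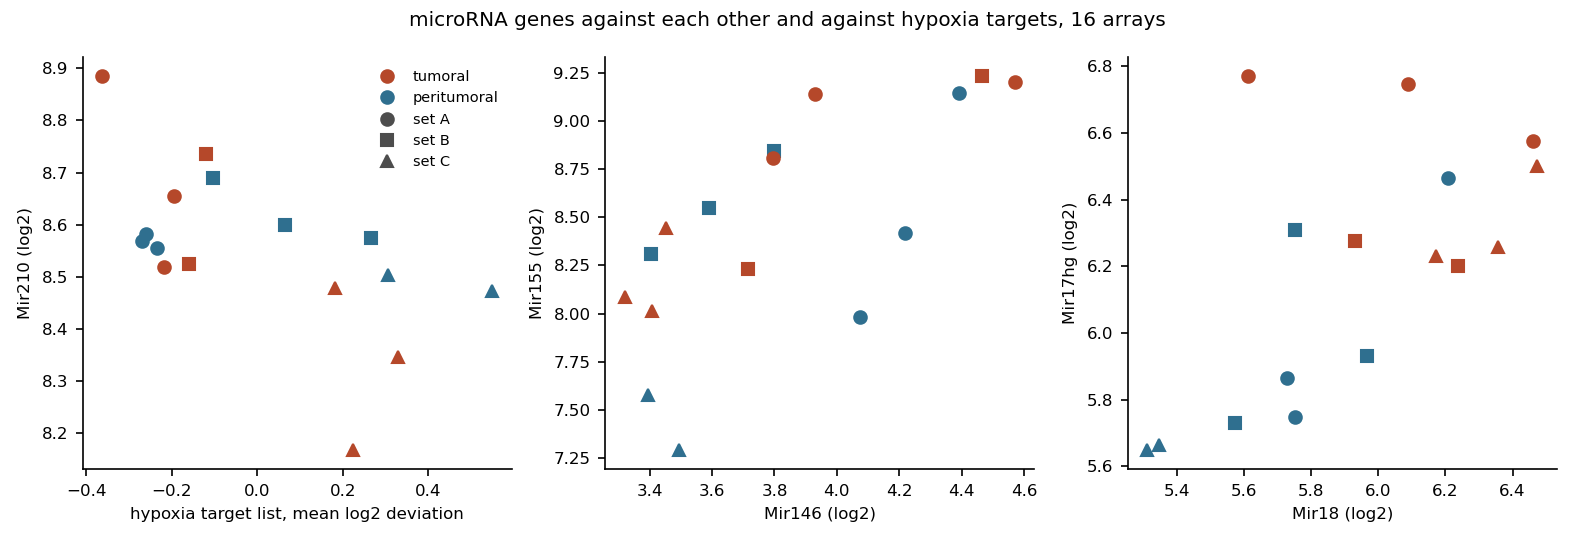
Log2 level of Mir210 against the mean log2 deviation of the HIF-induced genes, of Mir155 against Mir146 and of Mir17hg against Mir18, 1 point an array, coloured by label and shaped by set. The set C arrays lie at the right and low in the Mir210 panel and at the lower left in the Mir155 panel, while over sets A and B alone r was -0.27 and 0.56.

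The genes closest to each microRNA gene, by Pearson's r over all 16 arrays, are given as a description, since arrays of a set share whatever sets it apart. For Mir155 they were Arf4 (r = 0.967) and Relb (r = 0.963), which encodes an NF-kappaB subunit. For Mir17hg they were Srsf5 (r = 0.935), a splicing factor, and Pde3b (r = 0.922), and for Mir18 Rlf (r = 0.898) and Ccnyl1 (r = 0.889). For Mir212 they were Irf1 (r = 0.941), an interferon-induced transcription factor, and Sar1a (r = 0.931). For Mir146 they were Pigv (r = 0.898) and Trim24 (r = 0.886). For Mir210 they were Nr5a1 (r = 0.974), a nuclear receptor of gonad and adrenal, and Foxl2os (r = 0.966), and for Mir31 Taar7e (r = 0.836), a trace amine receptor, and Thegl (r = 0.826).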

How the data were processed

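Per the labels' protocols, total RNA from sorted cells was extracted with the miRNeasy kit, converted with an Ambion whole-transcript kit and labelled with biotin by an Affymetrix kit. For 28853 probe sets on 16 arrays the deposited values are log2 as read from their range of 2.31 to 14.33. The sources used here do not give log base, background correction or normalization. Platform annotation gave 1 symbol to 21789 probe sets, several to 1621 and none to 5443, and those with several were not used. For 999 genes with several probe sets the one with the highest mean was kept, leaving 19938 genes, with no filter on dim ones.

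The difference between labels was fitted by lmFit and eBayes of limma 3.58.1 (R 4.3.3) with no further term, which left 14 residual degrees of freedom, and with Benjamini-Hochberg adjustment over all genes. Exact tests ran over 12870 label assignments. limma was tested on simulated data. The members and gene lists were chosen with earlier results of these data known. Of 373 listed genes 330 were tested. Genes named are the members, the 3 with the smallest p in each list, the 2 most correlated with each member and the sorting markers; others named were chosen after their values were seen. Replicate numbers do not mark pairs in any label. Alternatives covered the replicate block, normalization, centring, dim probe sets, variance prior, array weights and leaving out arrays. Scanner files, detection calls and scan batches were not used here, and the number of arrays limits the precision. No 2 arrays were identical.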

Additional observations from a re-analysis of the deposited data

How the results depend on the processing

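Over up to 29 settings Mir17hg stayed between 0.41 and 0.68, Mir18 between 0.38 and 0.55, Mir212 between 0.25 and 0.40 and Mir155 between 0.19 (array weights) and 0.53, always higher on average in tumoral arrays. Leaving out 1 array moved the genes called between 0 and 128 (128 without peritumoral 7, 20 without peritumoral 8) and the microRNA genes called between 0 and 1, with Mir17hg at 0.48 to 0.60, Mir18 at 0.41 to 0.54, Mir212 at 0.25 to 0.36, Mir155 at 0.24 (without peritumoral 6) to 0.51, Mir31 at -0.0072 to 0.039, Mir146 at -0.068 to 0.12 and Mir210 at -0.079 to 0.024 (without tumoral 4). Without peritumoral 4 and 7, 88 genes and 1 of the 7 were called, with Mir17hg at 0.61 (limma adjusted p = 0.0389). There too the highest peritumoral array for Mir17hg, peritumoral 7, was left out. Without peritumoral 7 and 8, which were picked for their values, 522 genes and 3 of the 7 were called, with Mir17hg at 0.68 (adjusted p = 0.00191), Mir212 at 0.40 (adjusted p = 0.0359), Mir18 at 0.55 (adjusted p = 0.0443) and Mir31 at -0.0036. The set block without peritumoral 4 called 8 genes. Mir31 was -0.022 under array weights, Mir210 was 0.015 after centring, and the median of the regulator list was -0.040 after quantile normalization. The cause of these shifts was not tested. Centring also moved the unadjusted calls to 1593 higher and 576 lower, against 1116 and 1176 as deposited. Keeping genes above the median level tested only 3 of the 7, Mir155, Mir210 and Mir212, so Mir17hg and Mir18 were left out. Of these 3, Mir212 alone was at an unadjusted p under 0.05 by limma, against 14.8% of the genes tested there.

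With the replicate number as a block, 0 genes and 0 of the 7 were called by limma (1985 genes at an unadjusted p under 0.05), with the differences the same by construction and adjusted p = 0.360 for Mir17hg, 0.360 for Mir18 and 0.390 for Mir212. Deviations of same-numbered arrays correlated at -0.56, 0.29, 0.16, -0.28, -0.24, -0.56, -0.47 and 0.12 for numbers 1 to 8. Same-numbered arrays always lay in different deposited-order sets, so these correlations cannot tell whether the numbers mark pairs.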

Other observations

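Other microRNA genes known from myeloid cells lay on both sides of 0. Of 25 such genes with a probe set, 10 averaged higher in tumoral arrays and 15 lower, at a median difference of -0.02 on the log2 scale, with none at an unadjusted p under 0.05 by limma, and the median was -0.03 without peritumoral 4. Mir142, a microRNA gene of blood cells, measured 7.88 ± 0.31 in tumoral and 8.30 ± 0.62 in peritumoral arrays (SD, n = 8 each), the lowest difference of the 300 microRNA genes at -0.42 (adjusted p = 0.488). Mir222 measured 6.38 ± 0.28 in tumoral and 6.62 ± 0.27 in peritumoral arrays, and Mir125b-1 3.88 ± 0.11 in tumoral and 4.0 ± 0.16 in peritumoral arrays. The highest difference belonged to Mir15a, which was looked up after its value was seen and measured 8.94 ± 0.23 in tumoral and 8.34 ± 0.57 in peritumoral arrays, a difference of 0.60 (adjusted p = 0.290).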
